A study of Mus musculus with 192 samples.

Results

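Nuclear genes of the respiratory chain and the ATP synthase were examined in a list of open chromatin windows from Pi-ATAC, which couples index sorting of antibody-stained single cells with transposase-based mapping of accessible DNA. The genes were chosen by symbol alone: all protein-coding genes of the GENCODE mouse annotation (build mm9) whose names begin with Nduf, Uqcr, Atp5 or Sdh, or with Cox followed by a digit. This gave 100 genes from 101 gene models, out of 22238 protein-coding genes in all. The symbols cover 75 subunits of the complexes in wide use, 8 isoforms of restricted expression, 15 assembly factors or other proteins that are not subunits, and 2 genes caught by name only, Cox4nb (a neighbour of Cox4i1) and Atp5l-ps1 (named as a pseudogene). None of the 13 protein-coding genes carried by the mitochondrial chromosome has such a symbol.

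The respiratory chain sits in the inner mitochondrial membrane. Complex I (NADH dehydrogenase) and complex II (succinate dehydrogenase) pass electrons to ubiquinone, complex III (cytochrome bc1) passes them to cytochrome c, complex IV (cytochrome c oxidase) reduces oxygen, and the ATP synthase uses the proton gradient to make ATP. Most subunits are encoded in the nucleus, in genes with CpG-rich promoters at which factors such as NRF1, GABPA, YY1, the estrogen-related receptors (ERR) and SP1 are known to act, while complex IV in particular has alternative subunits made in muscle, lung or testis.

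The cells were 96 sorted as EpCAM-positive 4T1 cells, a mouse breast cancer line, and 96 sorted as CD45-positive splenocytes, taken from the spleen of an MMTV-PyMT mouse (mammary polyoma middle T transgene) that had no tumour at the time. Both kinds of cells were mixed, fixed, transposed together, and index sorted into single wells after antibody staining for both surface proteins. By source name 1 of the cells titled 4T1 was a splenocyte. The data analysed were 50000 windows of 500 bp, each centred on a peak summit, with no score or count. The peak names were read as calls on all cells pooled, whereas the study's methods describe calls on the cells of each condition, so that reading is not settled. There was 1 list without replicates, no difference between the cell kinds could be tested, and the counts below are descriptions set beside the same counts over all protein-coding genes. Windows lay at genes that mark either kind of cell. All 4 epithelial markers (Epcam, Krt8, Krt18 and Cdh1) and 3 of 5 leukocyte markers (Coro1a, Cd79a and Cd3e) had a promoter window, and Ptprc (CD45) had 3 windows elsewhere in its locus. Read depth was not analysed here.

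A promoter window was one that came, at its nearer edge, to within 1 kb of a transcript start of the gene. It was present at 88 of the 100 genes, against 48.2% of all protein-coding genes (10724 of 22238). In complex I 37 of 42 genes had one, in complex II 6 of 6, in complex III 7 of 8, in complex IV 21 of 26 and in the ATP synthase 17 of 18. By role, the windows were present at 70 of 75 subunits and at 15 of 15 assembly factors and other proteins, but at 2 of 8 restricted isoforms. For the genes of the mitochondrial ribosome (Mrpl and Mrps) the count was 66 of 77, and for the proteasome (Psm) 45 of 50, high shares too. Differences between these groups were not tested.

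**Figure D1:**
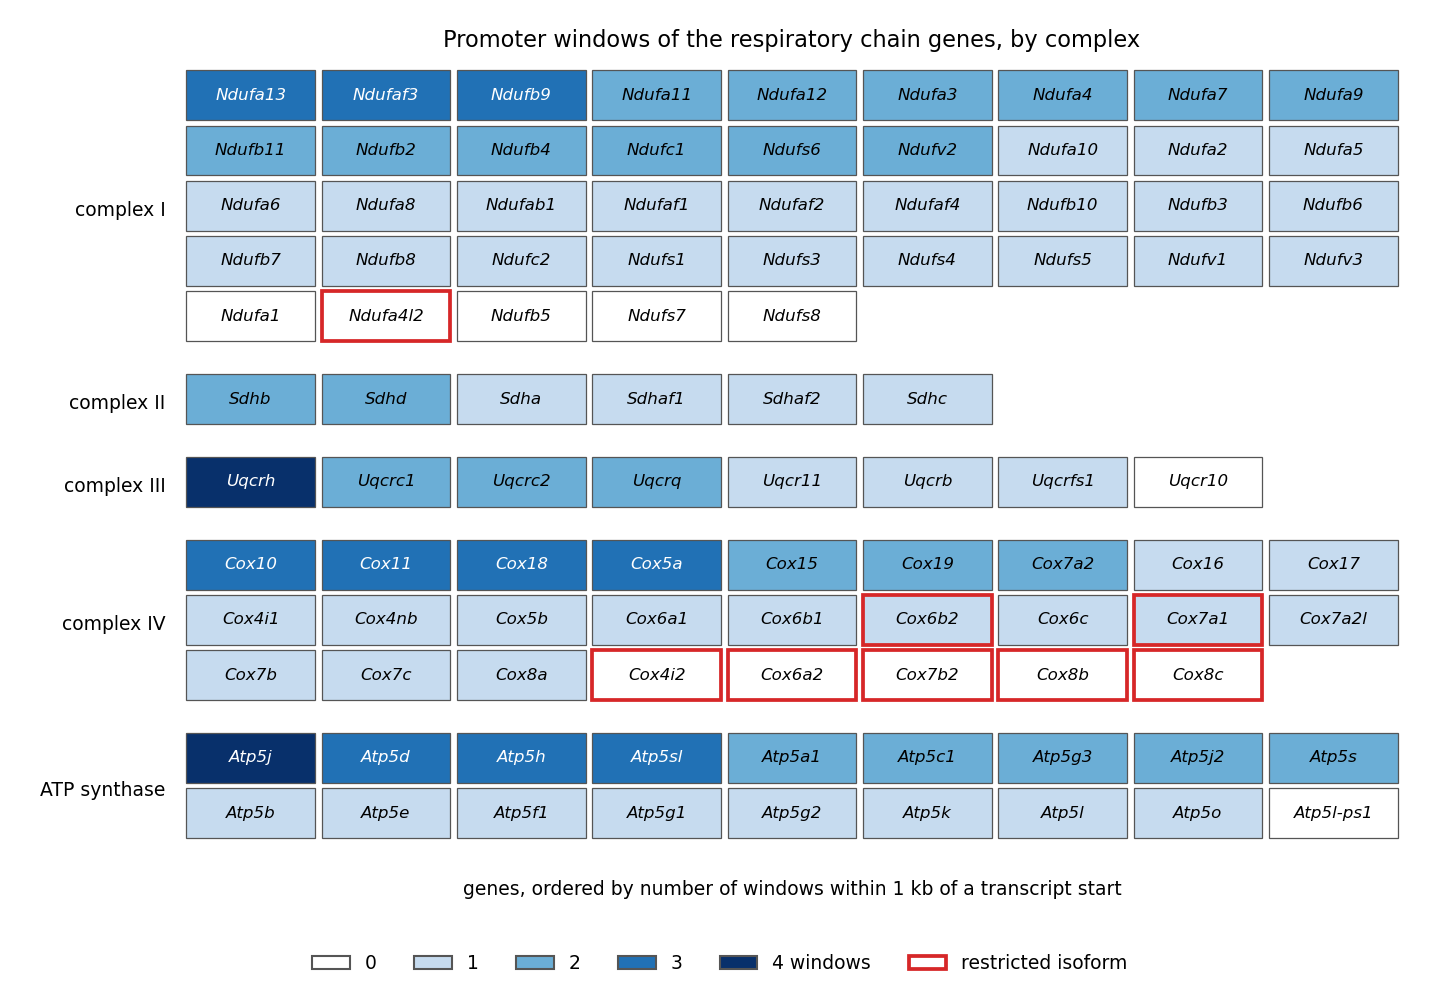
Each box is 1 gene (1 that is not reported here is left out), grouped by complex and ordered by its number of promoter windows, with white for 0 and darker blue for 1 to 4 windows. Red outlines mark the 8 restricted isoforms, of which 6 are white, against 5 of the 75 subunits in wide use.

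Complex I genes with windows included those for the flavoprotein that binds NADH and its partner (Ndufv1 with 1 window, Ndufv2 with 2) and for the large iron-sulfur subunit Ndufs1 (1 window). Ndufs7 and Ndufs8, which encode the iron-sulfur proteins next to the quinone site, had no promoter window. Ndufs7 (chr10:79711866-79719539, plus strand) had its nearest window centre 8.04 kb from a start, and its 3 locus windows all lay at the promoters of other genes (Dazap1 and Gamt). Ndufs8 (chr19:3908870-3912717, minus strand) lay 61.1 kb from the nearest window. The supernumerary subunits Ndufa1 (chrX:34727583-34731158, minus strand) and Ndufb5 (chr3:32635912-32650488, plus strand) were 16.6 kb and 28.5 kb from the nearest window centre. Ndufs7, Ndufa1, Ndufb5 and Ndufs8 had CpG ratios (defined below) of 0.957, 0.845, 0.735 and 0.556.

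Complex II, which also belongs to the citrate cycle, was covered in full. Sdha, the flavoprotein, had 1 promoter window, its centre 55 bp upstream of the start. Sdhb, the iron-sulfur subunit, had 2, at 87 bp downstream and 597 bp upstream. Of the membrane anchors, Sdhc had 1 window 15 bp downstream of a start and Sdhd had 2, at 63 bp downstream and 459 bp upstream. The assembly factors Sdhaf1 and Sdhaf2 had 1 window each, at 68 bp upstream and 133 bp downstream.

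In complex III, Uqcrh, the hinge protein, had 4 promoter windows, while the core proteins Uqcrc1 and Uqcrc2 had 2 each and the Rieske iron-sulfur protein gene Uqcrfs1 had 1. Uqcr10 (chr11:4601976-4604345, minus strand), a small subunit, was the exception, 16.7 kb from the nearest window centre with a CpG ratio of 0.765. The electron carrier that links complex III to complex IV had no promoter window at either of its genes. Cycs, the somatic cytochrome c, had no window in its locus either, at a CpG ratio of 0.847, and Cyct, the testis form, had 1 locus window.

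All 11 genes counted here, by symbol, as complex IV subunits in wide use (Cox7a2l among them) had a promoter window, from 1 at most of them to 3 at Cox5a. The 15 subunits of the ATP synthase in wide use also all had one. Among them were the 5 genes for its catalytic F1 part (Atp5a1 2, Atp5b 1, Atp5c1 2, Atp5d 3 and Atp5e 1) and the 3 genes whose products give the same mature c subunit of the rotor (Atp5g1 1, Atp5g2 1 and Atp5g3 2). Atp5j (coupling factor 6) had 4 promoter windows at its annotated starts. Atp5h (subunit d) and Atp5sl (not a subunit) had 3 each.

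A contrast within the set lay between subunit isoforms. The 7 genes for the isoform in wide use (Cox4i1, Cox6a1, Cox6b1, Cox7a2, Cox7b, Cox8a and Ndufa4) all had a promoter window, and of the 8 restricted isoforms paired with them only Cox6b2 and Cox7a1 had one (25%). All 8 had CpG ratios (defined below) under 0.6, and 23.8% of all such genes had a promoter window, a like share. The genes in wide use, except Cox7b (0.482), had ratios of 0.6 or more, where the share over all genes was 77.3%. At Cox4i1 the window centre lay 118 bp upstream of the start, and at its hypoxia-responsive, lung-enriched partner Cox4i2 the only locus window was 9.39 kb downstream, in an intron. Cox6a1 and Cox6b1 each had a window 78 bp upstream. The muscle isoform Cox6a2 had its nearest window centre 31.6 kb from its start, while Cox6b2, the testis isoform, had its promoter window 912 bp downstream of the start, beyond the region where most promoter windows lay. At Cox7a2 the nearer of 2 windows was 14 bp upstream, and at the muscle isoform Cox7a1 the window was 488 bp upstream. Cox7b had a window 96 bp downstream of its outermost start, and the window nearest to the start of the testis gene Cox7b2 was 155.0 kb away. Cox8a had a window 32 bp upstream, while the nearest lay 18.1 kb from the muscle isoform Cox8b and 20.6 kb from the testis isoform Cox8c. Ndufa4 (counted under complex I by its symbol, though its product is now placed in complex IV) had windows 145 bp and 892 bp upstream, and the 2 windows at Ndufa4l2, a gene known to respond to hypoxia, were 1.91 kb and 2.64 kb upstream.

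**Figure D2:**
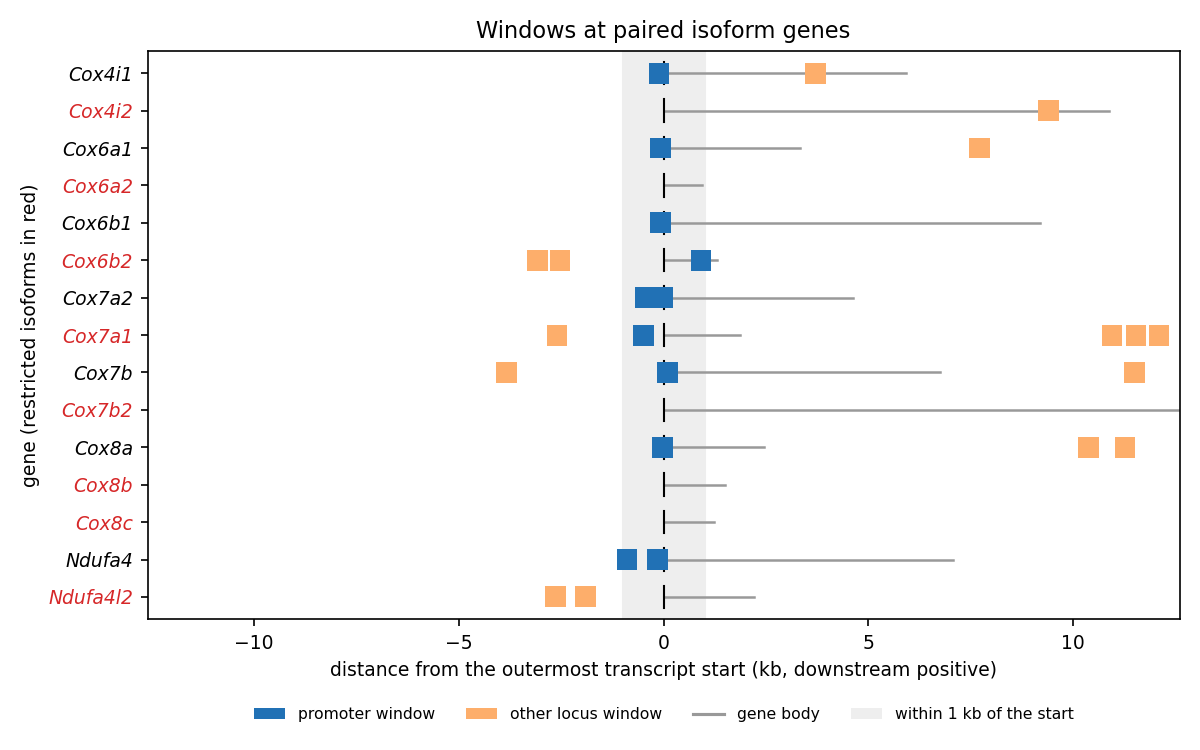
Windows of 500 bp (boxes) at the paired isoform genes, by distance from the outermost transcript start in kb with downstream positive; blue boxes are promoter windows, orange boxes other windows of the locus, and grey lines the gene bodies (that of Cox7b2 runs past the edge). Every gene in wide use (black) has a blue box, and 6 of the 8 restricted isoforms (red) have none.

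The 120 bases just upstream of the outermost start are shown for 3 of these pairs, 5′ to 3′ on the gene's strand, as examples of pairs in which the gene with a window had more CpG dinucleotides. Positions in mm9 are chr8:123192070-123192189 (Cox4i1, plus strand), chr2:152579789-152579908 (Cox4i2, plus strand), chr5:115798991-115799110 (Cox6a1, minus strand), chr7:135349881-135350000 (Cox6a2, minus strand), chr19:7292107-7292226 (Cox8a, minus strand), chr7:148086346-148086465 (Cox8b, minus strand). Capitals mark CpG dinucleotides.
Cox4i1: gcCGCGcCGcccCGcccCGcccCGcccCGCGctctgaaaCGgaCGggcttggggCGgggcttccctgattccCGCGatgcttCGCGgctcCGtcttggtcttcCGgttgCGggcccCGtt
Cox4i2: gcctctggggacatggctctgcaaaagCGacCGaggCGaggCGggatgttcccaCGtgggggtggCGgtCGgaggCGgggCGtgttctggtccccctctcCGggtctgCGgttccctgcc
Cox6a1: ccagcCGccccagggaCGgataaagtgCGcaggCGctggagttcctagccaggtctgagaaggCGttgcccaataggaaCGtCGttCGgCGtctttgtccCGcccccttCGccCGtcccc
Cox6a2: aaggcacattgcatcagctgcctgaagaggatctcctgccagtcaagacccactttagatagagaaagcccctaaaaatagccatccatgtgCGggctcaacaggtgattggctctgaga
Cox8a: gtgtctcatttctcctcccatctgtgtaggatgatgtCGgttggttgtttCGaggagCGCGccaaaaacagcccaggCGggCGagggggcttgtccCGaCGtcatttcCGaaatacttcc
Cox8b: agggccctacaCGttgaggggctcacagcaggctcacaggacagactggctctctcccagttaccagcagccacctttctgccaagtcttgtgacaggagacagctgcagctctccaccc
These stretches hold 19 CpG dinucleotides at Cox4i1 and 11 at Cox4i2, 12 at Cox6a1 and 1 at Cox6a2, and 9 at Cox8a and 1 at Cox8b. All 120 bases lay inside a window at Cox4i1, Cox6a1 and Cox8a, and none at their partners. In the other pairs the gap was smaller or reversed. There were 10 at Cox7a2 and 4 at Cox7a1, 8 at Cox6b1 and 6 at Cox6b2, 7 at Cox8c (against the 9 at Cox8a), and 5 at Ndufa4 and 3 at Ndufa4l2. Cox7b, with a window, had 3 CpG dinucleotides and Cox7b2, without one, had 7.

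CpG content was also compared over the wider promoter. The CpG ratio is the observed over the expected number of CpG dinucleotides within 500 bp of the outermost start, and values of 0.6 or more were taken as CpG-rich. Its median was 0.732 over the 100 genes, 0.322 over the 8 restricted isoforms and 0.55 over all protein-coding genes. Among CpG-rich genes, 77 of 81 respiratory chain genes had a promoter window, against 77.3% of all such genes (7852 of 10164). Below that ratio the counts were 11 of 19, against 23.8% of all (2872 of 12074). In the narrower class from 0.6 to 0.8, which held 54 of the genes, 52 had a window, against 73.3% of all genes in the class. A share above that of all genes at a like CpG ratio was seen in 5 of 6 classes, the lowest class holding 1 gene, Ndufa4l2. How much of the share followed from CpG content was not tested.

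**Figure D3:**
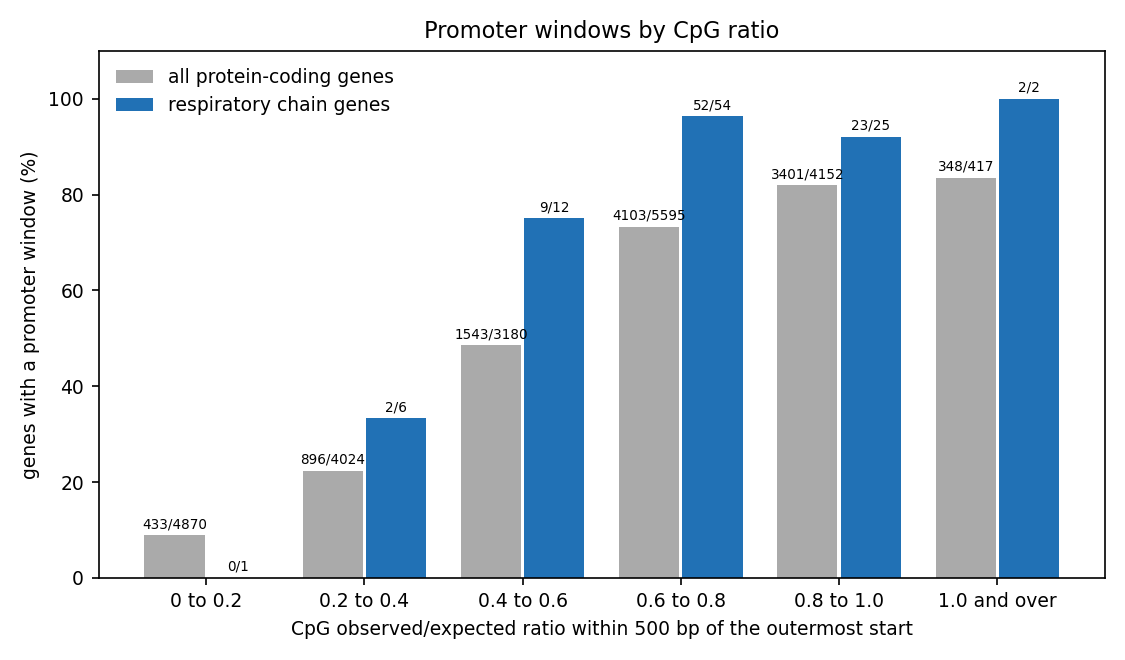
Bars give the percent of genes with a promoter window in classes of the CpG observed over expected ratio around the outermost start, for all protein-coding genes (grey) and the respiratory chain genes (blue), with counts above each bar. The share over all genes rises from class to class, whereas that of the respiratory chain genes is 96.3% in the class from 0.6 to 0.8 and 92% in the next.

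Absence from the list is not absence of a peak, because the list holds the 50000 windows of lowest q-value and the peak names number the calls along the genome. Between the windows that flank Cox4i2, 20.9 kb apart, no call number was missing. For the other 11 genes without a promoter window, from 2 (Ndufa1 and Cox8b) to 16 (Cox8c) call numbers were missing between the flanking windows, and where those calls lay was not recorded. For the subunits in wide use the missing numbers were 2 at Ndufa1, 3 at Ndufb5, 4 at Ndufs7, 5 at Ndufs8 and 7 at Uqcr10. A smaller share of calls was kept on chromosomes 1 and 10 to 13 (29.6%) than on the others (41.3%). Counts were alike in both sets, with 24 of 28 respiratory chain genes on the former having a promoter window and 64 of 72 on the latter.

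Few genes lay close to the 1 kb limit. Just inside it, the gap from a start to the nearest window edge was 663 bp at Cox6b2, 566 bp at Atp5g2 and 418 bp at Ndufa6 (a small complex I subunit). Just outside, it was 1661 bp at Ndufa4l2, 7792 bp at Ndufs7 and 8224 bp at Cox4i2.

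At most genes 1 promoter window was centred close to a start. Taking for each gene the window nearest to its outermost start, the median distance was 80.5 bp over the 88 genes and 121 bp over all 10724 genes with a window. Over the CpG-rich ones it was 108 bp. The distance was at most 100 bp at 54 of 88 (61.4%), against 42.6% of all and 47.0% of the CpG-rich ones. Measured to the nearest of any annotated start, the medians were closer, 66 bp and 87 bp over all. From the outermost start, centres lay upstream at 48 genes and downstream at 40. At Uqcrc2 the centre was 1 bp downstream of the start, at Ndufaf4 (a complex I assembly factor) 3 bp upstream and at Uqcrfs1 4 bp upstream. Beyond 500 bp were 5 genes. Atp5d had its windows 2912 bp or more downstream of an outermost start that is 1 of 4 annotated, with 1 centred exactly on another. The others were Cox6b2 (912 bp downstream), Atp5g2 (816 bp upstream), Ndufa6 (667 bp downstream) and Atp5j2 (subunit f, 628 bp downstream, but 77 bp from another start).

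**Figure D4:**
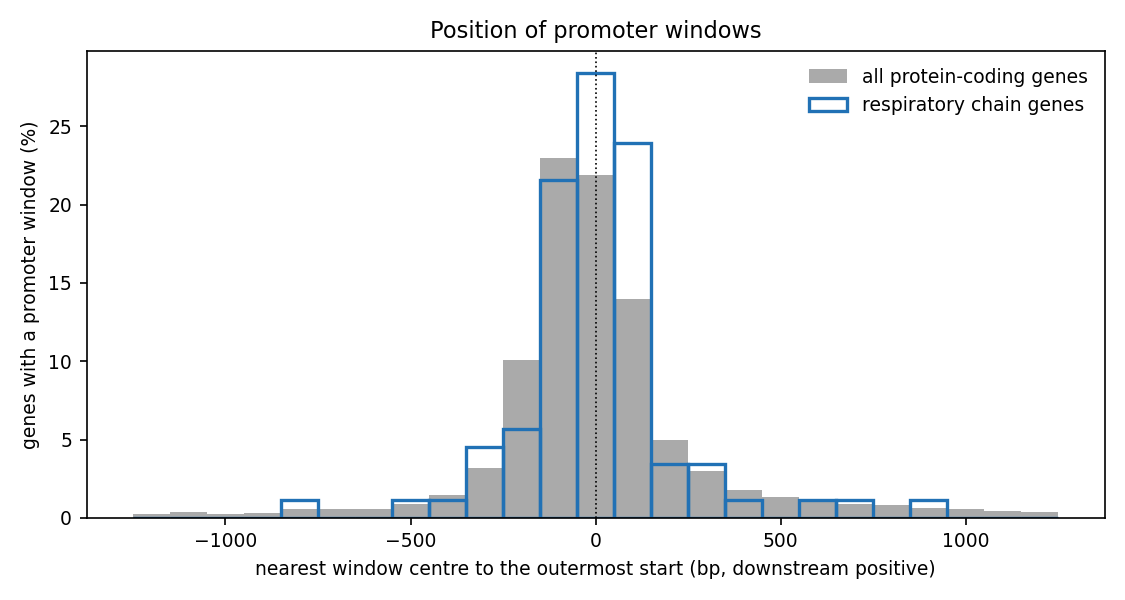
Share of genes with a promoter window (y axis, percent) by the distance in bp from the outermost start to the nearest window centre, in classes of 100 bp, downstream positive. Of the respiratory chain genes (blue outline, n = 88), 28.4% fall in the class around the start, where all genes (grey, n = 10724) are spread more widely.

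More than 1 promoter window was present at 38 of the 88 genes (43.2%), against 50.7% of all genes with a window. In all, the genes had 139 distinct promoter windows. Of these, 36.0% came from calls with several summits, against 33.2% of all windows at promoters of protein-coding genes. In complex III the count was 8 of 13, and in the ATP synthase 9 of 31.

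Many of these promoters were shared with a neighbour. At 33 of the 88 genes (37.5%) a promoter window also lay within 1 kb of a start of another protein-coding gene, against 22.1% of all genes with a window. The share was 34.8% for the mitochondrial ribosome genes, close to that of the set, 22.2% for the proteasome genes and 24.7% for all CpG-rich genes. At 24 of the 88 genes (27.3%, against 13.2% of all) the neighbour was a divergent gene, read from the opposite strand upstream, its outermost start at most 2 kb away. The pairs named here were picked after their values were seen. Sdhd shared its windows with Timm8b, a chaperone of mitochondrial protein import, Ndufa7 with the ribosomal protein gene Rps28, and Ndufs1 with Eef1b2, a translation elongation factor. Cox4i1 and Cox4nb shared 1 window, centred 118 bp upstream of the first and 60 bp upstream of the second. Atp5j shared windows with Gabpa, which encodes the DNA-binding subunit of the factor GABP, a known activator of respiratory genes. Among complex II genes 5 of 6 shared a window, Sdhb being the exception, and among the 11 complex IV subunits in wide use 1 did, Cox4i1.

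Outside their own promoters, 62 of the 100 genes had a window in the gene or within 10 kb on either side, against 54.1% of all protein-coding genes. The median number was 1 in both, and the means were 1.44 and 1.56 windows per gene. Respiratory chain genes are short, with a median of 7593 bp against 15510.0 bp, and over all genes between 4077 and 13242 bp long, the middle range of the set, the share was 50.8%. Among CpG-rich genes it was 53 of 81 (65.4%), against 67.6% of all such genes, whose median length was 25216 bp. Of the 143 distinct windows counted, 64 lay at the promoter of another protein-coding gene, 38 in introns, 10 in exons and 31 between genes. Introns and exons of neighbouring genes were counted too. Without those at the promoters of other genes, 44 of the 100 genes still had a locus window, against 44.3% of all.

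The largest counts were next to busy neighbours. Atp5b, the catalytic beta subunit, had 9 locus windows, of which 5 lay at the promoter of Baz2a. The other 4 were 9.7 to 14.0 kb downstream of the start of Atp5b, which is 7119 bp long, in introns of another gene. Uqcrc1 had 8 locus windows, of which 2 lay at the promoter of Col7a1 and 5 in introns, from 8.93 to 23.2 kb downstream of its start. Uqcrc1 is 13025 bp long, so the farther of these were in introns of another gene. Ndufaf3, a complex I assembly factor, had 6, of which 4 were at the promoters of Impdh2 and Dalrd3. Of the 5 at Atp5d, 4 were at the promoter of Midn. Atp5o (the stalk protein OSCP) had 5, from 142 to 244 kb from its outermost start, within a gene model that spans 247290 bp. The 2 windows of Ndufa4l2 lay between genes.

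Short words known to be bound by factors of this pathway were searched on both strands of the promoter windows. They were CGCATGCG (NRF1, a palindrome), CCGGAAG (GABPA and other ETS factors), ATGGCGG (YY1) and AAGGTCA (ERR and some other nuclear receptors). For comparison, GGGCGG (SP and KLF factors), CCAAT (NF-Y), TGACGTCA (CREB and ATF) and CACGTG (E-box) were searched too. No word is contained in another, though matches of different words can share bases. A match shows only that these letters are present, not that a factor was bound.

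The ERR word was present in a promoter window of 26 of 88 genes (29.5%), against 9.56% of all genes with a promoter window, 9.32% of the CpG-rich ones, 8 of 66 mitochondrial ribosome genes and 3 of 45 proteasome genes. It was found in 9 of 17 ATP synthase genes, 9 of 37 complex I genes, 5 of 21 complex IV genes, 2 of 7 in complex III and 1 of 6 in complex II. Of its 29 matches 13 (44.8%) were centred within 100 bp of a start, against 15.5% of matches over all genes. The YY1 word was present at 29 of 88 genes (33.0%, against 18.2%). It was at 14 of 37 complex I genes, 3 of 6 in complex II, 4 of 7 in complex III, 3 of 21 in complex IV and 5 of 17 ATP synthase genes. It begins with the start codon, and 24 of its 35 matches read along the gene's strand and 24 lay downstream of the nearest start (68.6% each). Over all genes 58.9% of its matches read along the gene's strand and 61.8% lay downstream. Of the mitochondrial ribosome genes 23 of 66 held it (34.8%), as did 28.9% of the proteasome genes and 20.6% of the CpG-rich genes. The NRF1 word was present at 10 genes (11.4%, against 5.24%). It was at 9.09% of the mitochondrial ribosome genes, 4.44% of the proteasome genes and 6.1% of the CpG-rich genes. The ETS word was present at 33 genes (37.5%, against 29.7%). Its share was higher at mitochondrial ribosome genes (28 of 66, 42.4%) and proteasome genes (44.4%), and was 32.8% of the CpG-rich genes.

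The remaining words were not more frequent than at other promoters, apart from the CREB and ATF word (6 genes, 6.82% against 4.95%). The SP and KLF word was present at 73.9% (against 81.1%), the NF-Y word at 44.3% (against 61.0%) and the E-box at 11.4% (against 20.6%). Counted per window instead of per gene, the ERR word was in 20.1% of the 139 windows, against 5.69% of all 17303 promoter windows, and the NF-Y word in 35.3%, against 45.1%. None of these differences was tested.

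**Figure D5:**
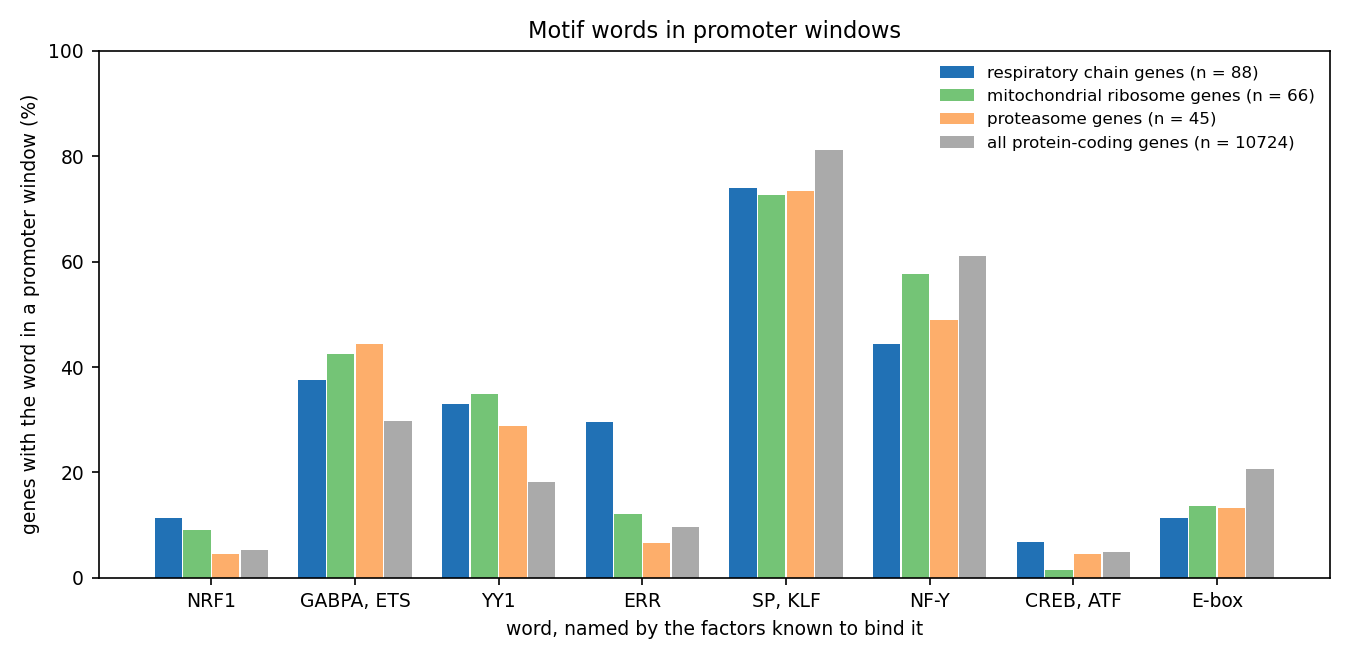
Percent of genes with a promoter window whose windows hold each word, for the respiratory chain genes (blue), mitochondrial ribosome genes (green), proteasome genes (orange) and all protein-coding genes (grey). The blue bar stands apart from the other 3 at the ERR word, 29.5% against 12.1%, 6.67% and 9.56%.

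Of the first 4 words, at least 3 were present together at 9 of the 88 genes. All 4 were found in the windows of Atp5j, a combination that 4 of 10724 genes had (0.0373%), and some of its windows are those shared with Gabpa. With 3 words (8 genes, 9.09%, against 1.25%) were Atp5k, Cox10, Cox18, Ndufa13, Ndufs1, Sdhd, Uqcr11 and Uqcrc1. A word anywhere in a promoter window was counted. At Ndufa13, which shared a promoter window with Tssk6, none of the 4 words lay within 250 bp of the outermost start. Atp5j had none of them within 250 bp of its outermost start either, but its NRF1 word lay 35 bp from another annotated start. No word of the 4 was present at 27 genes, against 50.7% of all, and among these were Atp5f1, Atp5o, Cox5a, Sdha and Uqcrc2.

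Of 62 genes with a promoter window whose 120 bases upstream of the outermost start were clear of any exon, 13 held 1 of the 4 words there and none held more. The first 6 by name are printed as examples of what the matched letters look like in place, 5′ to 3′ on the gene's strand. Positions in mm9 are chr2:174289607-174289726 (Atp5e, minus strand), chr15:102501479-102501598 (Atp5g2, minus strand), chr2:73749384-73749503 (Atp5g3, minus strand), chr9:44728826-44728945 (Atp5l, minus strand), chr12:82586115-82586234 (Cox16, minus strand), chr16:38346957-38347076 (Cox17, plus strand). Capitals mark the ETS word (Atp5e and Cox16), the NRF1 word (Atp5g2) or the ERR word (Atp5g3, Atp5l and Cox17), in either orientation.
Atp5e: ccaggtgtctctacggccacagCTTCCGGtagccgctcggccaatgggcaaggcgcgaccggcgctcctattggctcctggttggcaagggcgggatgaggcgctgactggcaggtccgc
Atp5g2: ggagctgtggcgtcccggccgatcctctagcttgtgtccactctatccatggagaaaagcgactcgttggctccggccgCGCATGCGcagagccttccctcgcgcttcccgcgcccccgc
Atp5g3: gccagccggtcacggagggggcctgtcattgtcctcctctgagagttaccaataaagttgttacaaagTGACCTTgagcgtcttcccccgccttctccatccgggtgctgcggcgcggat
Atp5l: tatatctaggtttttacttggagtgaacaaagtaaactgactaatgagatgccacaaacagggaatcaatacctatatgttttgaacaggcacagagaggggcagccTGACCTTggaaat
Cox16: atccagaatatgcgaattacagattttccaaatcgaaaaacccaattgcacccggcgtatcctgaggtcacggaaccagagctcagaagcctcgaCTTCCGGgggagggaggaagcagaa
Cox17: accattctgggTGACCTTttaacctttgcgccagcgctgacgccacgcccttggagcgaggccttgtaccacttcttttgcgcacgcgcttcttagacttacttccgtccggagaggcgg
At Atp5e, Atp5g3, Atp5l and Cox17 all 120 bases lay inside a promoter window, and at Cox16 68 did. At Atp5g2, whose only promoter window was centred 816 bp upstream, none did, so its NRF1 word was outside the window. The stretch of Atp5l holds no CpG dinucleotide, although the ratio around its start was 0.791.

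At the 12 genes without a promoter window the words were looked for around the start instead. Within 250 bp of the outermost start, 1 of 12 held the NRF1 word and 2 of 12 each of the ETS, YY1 and ERR words, against 2.6%, 14.4%, 9.8% and 6.36% of all protein-coding genes. Over all 100 genes the ERR word was within 250 bp of the start at 26, the NRF1 word at 12, the ETS word at 30 and the YY1 word at 24.

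Other genes of the pathway, listed by function and not by symbol, were mostly covered as well. Most of them were CpG-rich. A promoter window was present at 48.2% of all protein-coding genes and at 77.3% of the CpG-rich ones. Of 23 further assembly and maintenance genes 20 were found in the annotation and 18 had a promoter window, the exceptions being Surf1 and Sco2, both needed to assemble complex IV. Their CpG ratios were 0.577 and 0.328, under 0.6. So were those of Uqcc (0.547) and Atpaf2 (0.301), which had a promoter window. Of 13 citrate cycle enzymes 12 had one, with 4 windows at Suclg1 (a succinate-CoA ligase subunit).

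Of 14 regulators of respiratory genes, all but Ppargc1a CpG-rich, 12 had a promoter window (85.7%, against 77.3% of all CpG-rich genes). There were 3 at Gabpa, 2 each at Gabpb1 (the partner of GABPA) and Creb1, and 1 each at Yy1, Esrra (ERR alpha), the coactivators Ppargc1a, Ppargc1b and Pprc1, and the mitochondrial transcription genes Tfam, Tfb1m, Tfb2m and Polrmt. Nrf1 had no window in its promoter or locus, and Sp1 had 1 locus window only. Both have CpG-rich starts, with ratios of 0.915 and 0.677.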

How the data were processed

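Single cells were profiled by Pi-ATAC, and 1 table of the whole series was used. As the methods describe, the authors removed adapter sequence, aligned read pairs to mm9 with Bowtie2 2.1.0, discarded low-quality, duplicate (Picard 1.79) and mitochondrial reads, and called summits with MACS2 on aggregated cells (version not given in the sources used here). The deposited unit is a position: the start and end of each 500 bp window around a summit with a peak name, and the authors gave no score, count or p-value per window. Windows were kept by the lowest q-values.

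Windows were counted with Python 3 scripts on GENCODE models for mm9, with gene models of 1 symbol merged, promoters within 1 kb of any transcript start and loci extending 10 kb on either side. No window ran past a chromosome end of the reference. Base composition and words were read from the mm9 genome, and no sequence of chromosome 18 is shown. Counting was tried on simulated windows placed at 200 genes, of which 200 were found. No replicates or values per sample exist in the table, so no tests were run. Chromosome M and Y genes stayed in the totals.

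The genes and lists were chosen with earlier results of these data known. Named genes are those without a promoter window, complex II, the isoform pairs, the 5 with most promoter windows and the 5 with most locus windows (ties by name), 3 on each side of the distance limit, those with printed stretches, and the regulators and cytochrome c genes. The values of some genes that this rule or the lists name are not reported here. Others named were chosen after their values were seen. Alternatives covered distances, starts, windows of multi-summit calls, chromosomes and the leaving out of non-subunits.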

Additional observations from a re-analysis of the deposited data

How the results depend on the processing

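The number of genes with a promoter window lay between 86 and 89 of 100 when the distance was 500 or 2500 bp, when the window centre had to lie within 1 kb, or when the outermost or protein-coding starts alone were used. Without the genes that are not subunits it was 72 of 83. It fell to 23 (13.0% of all genes) when windows of calls with several summits alone were counted, an alternative that removes most windows. The number with a locus window outside the promoter moved to 94 with 50 kb on either side (80.3% of all genes) and to 14 with windows of multi-summit calls alone (9.47%), and was 50 with 5 kb (44.1%). Shared promoters were counted at 31 and 38 genes with 500 and 2500 bp, and the share of windows from multi-summit calls was 37.6% and 36.7%. The numbers of respiratory chain genes holding each word stayed within 1.5 times when read within 250 bp of the outermost start. These are out of all 100 genes, with or without a window, and are set beside all 22238 genes. The direction changed for 2 words. The SP and KLF word was at 59% against 52.7% of all genes and the E-box at 12% against 10.4%, above instead of below the share over all genes. The list holds no depth, score or replicate, so which of the 2 kinds of cells gave a window cannot be told apart. Except at Cox4i2, where no call was missing between the flanking windows, neither can a gene without a call and one whose call was below the rank limit. No paired analysis was possible because no result comes from a test.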
